A study of Mus musculus with 48 samples.

Results

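Immediate early genes are switched on within minutes of a stimulus by transcription factors that are already present in the cell, and their messenger RNAs are short-lived. Fos, Fosb, Jun, Junb, Egr1, Ier2, Ier3, Nr4a1, Dusp1 and Klf4 were followed here in whole mouse lung after cigarette smoke. All probe sets that the array annotation gives to these 10 symbols were taken, which are 12 of the 22690 probe sets of the deposited table. Jun and Klf4 have 2 probe sets each, and the other 8 genes have 1.

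Lungs of 48 male C57BL/6 mice were each measured on 1 Affymetrix array, in 6 groups of 8 animals. DIO mice, made obese by a high-fat chow (60 kcal% fat, given since an age of 6 weeks), breathed mainstream smoke (DIO-MS), sidestream smoke (DIO-SS) or filtered air (DIO-SC). RW mice, of regular weight on a diet with about 5 kcal% fat, breathed the same 3 atmospheres (RW-MS, RW-SS and RW-SC). Mainstream smoke is drawn through the cigarette and sidestream smoke comes off its burning tip. All mice were bought at 13 weeks of age and were 15 weeks old at the start. The air groups, like the smoke groups, were exposed nose-only for 5 hours a day on 8 days over 2 weeks. Necropsy was 1 day after the last exposure. The deposited text on the animals places the 9 weeks of diet before a study with LPS rather than smoke, and no group is labelled with LPS. By its title, the study asked whether obesity worsens what smoke does to inflammation and oxidative stress. All levels below are log2 signals, which compare arrays within a probe set and not 1 probe set with another. In whole lung, fewer cells of a type and less RNA per cell cannot be told apart.

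The members fall into 3 roles. FOS and FOSB pair with JUN or JUNB to form AP-1, a dimeric factor that binds TGACTCA sites, and JUNB is a weaker activator than JUN at many of them. EGR1, KLF4 and NR4A1 are transcription factors with zinc fingers, NR4A1 being an orphan nuclear receptor. DUSP1 is a phosphatase that switches off MAP kinases, IER3 is a stress-induced protein that modulates cell survival, and IER2 is a nuclear protein. Signals reach the promoters of such genes mostly through MAP kinases, which act on SRF and its ELK partners at CArG boxes, and through CREB at cyclic AMP response elements (CRE). In lung they are known to respond to stretch, oxidants and cytokines.

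Promoter windows of 5 members are shown because they carry the elements through which such signals are known to act. Each runs 5′ to 3′ from 250 bases before to 50 bases after an annotated start and comes from RefSeq on GRCm38.p6. The windows are Fos at chr12:85473640-85473939 (plus strand), Dusp1 at chr17:26508423-26508722 (minus strand), Nr4a1 at chr15:101266596-101266895 (plus strand), Junb at chr8:84978699-84978998 (minus strand) and Jun at chr4:95052173-95052472 (minus strand). Capitals mark the CRE half-site TGACG (as its reverse complement where it lies on the opposite strand), the full CRE TGACGTCA in Dusp1, the AP-1 variant TGACATCA in Jun, and TATAAA.
Fos: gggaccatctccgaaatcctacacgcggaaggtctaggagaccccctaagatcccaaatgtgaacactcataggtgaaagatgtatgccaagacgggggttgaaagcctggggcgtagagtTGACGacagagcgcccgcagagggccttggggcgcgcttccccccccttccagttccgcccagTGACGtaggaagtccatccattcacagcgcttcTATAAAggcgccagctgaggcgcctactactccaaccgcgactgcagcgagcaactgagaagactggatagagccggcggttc
Dusp1: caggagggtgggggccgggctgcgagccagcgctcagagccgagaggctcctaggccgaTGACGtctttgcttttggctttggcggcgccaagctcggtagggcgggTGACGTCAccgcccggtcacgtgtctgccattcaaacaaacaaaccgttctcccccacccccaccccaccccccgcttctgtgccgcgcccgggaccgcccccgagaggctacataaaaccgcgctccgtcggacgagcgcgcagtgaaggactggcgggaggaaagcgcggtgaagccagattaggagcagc
Nr4a1: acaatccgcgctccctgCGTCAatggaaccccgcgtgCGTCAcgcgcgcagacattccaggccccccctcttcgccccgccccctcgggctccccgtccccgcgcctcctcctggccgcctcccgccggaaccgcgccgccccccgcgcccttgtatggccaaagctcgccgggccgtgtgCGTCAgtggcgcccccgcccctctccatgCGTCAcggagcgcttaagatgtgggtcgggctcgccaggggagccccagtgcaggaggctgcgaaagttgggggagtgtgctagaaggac
Junb: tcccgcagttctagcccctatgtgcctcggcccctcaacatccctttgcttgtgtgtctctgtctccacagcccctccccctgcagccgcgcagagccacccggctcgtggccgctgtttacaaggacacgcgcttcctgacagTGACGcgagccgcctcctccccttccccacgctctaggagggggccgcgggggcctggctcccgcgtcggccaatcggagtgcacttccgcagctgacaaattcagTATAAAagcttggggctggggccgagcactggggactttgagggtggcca
Jun: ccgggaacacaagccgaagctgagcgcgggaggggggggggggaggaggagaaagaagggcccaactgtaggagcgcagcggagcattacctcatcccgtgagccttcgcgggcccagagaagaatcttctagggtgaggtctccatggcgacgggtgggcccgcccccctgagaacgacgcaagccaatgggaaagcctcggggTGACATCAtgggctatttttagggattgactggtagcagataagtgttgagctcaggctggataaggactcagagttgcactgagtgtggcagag

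A window was found for 8 of the 10 members, that is for all but Ier2 and Egr1, and both strands were searched. A CRE half-site stood in 6 of these 8 windows, against 20.8% of 32851 mouse windows of the same length. At least 2 half-sites stood in 3 windows, against 5.01% of all. In Fos they began 129 and 66 bases upstream of the start, and in Nr4a1 233, 213, 69 and 40 bases upstream. In Dusp1 they began 191, 143 and 140 bases upstream, and those at 143 and 140 are the 2 strands of its full CRE. The full CRE stood in 1 member window against 1.79% of all, and TGACATCA in 1, that of Jun 45 bases upstream, against 3.62%. TATAAA was present in Fos, 33 bases upstream, and in Junb at the annotated start, against 13.6% of all windows. The EGR site GCGNGGGCG was found in 3 windows (Fosb, Nr4a1 and Klf4) against 5.55%, and the GC box GGGCGG in 7 against 35.7%. A GC box overlapped the EGR site in those 3 windows. The AP-1 site TGACTCA and the CArG box were found in 0 of the 8 windows, against 5.20% and 1.63% of all. Bases more than 250 upstream of the start, and the promoters of Ier2 and Egr1, were not searched. The search therefore cannot show that these genes lack such sites. These are matches of letters, with no measurement of binding.

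The arrays carried lung RNA, since 8 lung markers, among them the surfactant gene Sftpc and the club cell gene Scgb1a1, ranked between percentiles 95.8 and 100 of all probe sets. Not all 48 arrays were alike. Averaged over its correlations with every other array, r was 0.962 to 0.982 for 5 arrays that stand apart and 0.987 or more for the 43 others. The 5 are DIO-MS-1, DIO-MS-6, DIO-SC-3, DIO-SC-7 and RW-SS-6, where the last number is the animal. The score of a marker list is the mean log2 deviation of its genes from their means over the 48 arrays. The interferon response score was 4.25 on DIO-MS-6 and 4.44 on DIO-MS-1, against -0.85 to 2.36 on the 43 other arrays. DIO-SC-7 had a thymocyte score of 5.12 (others -0.37 to 0.19) and an adipocyte score of 4.08 (others -0.93 to 0.64). DIO-SC-3 had a squamous epithelium score of 7.10 (others -0.46 to 0.65) and a skeletal muscle score of 6.31 (others -0.62 to 0.72), and RW-SS-6 had an adipocyte score of 4.38. DIO-SC-7 lay below the remaining arrays of its group for 9 of the 12 member probe sets and above them for 0. DIO-SC-3 lay below for 6 and above for 1, DIO-MS-1 below for 5 and above for 1, DIO-MS-6 below for 4 and above for 5, and RW-SS-6 below for 4. The share of all probe sets outside these ranges was not counted, so the members are not shown to be unusual on these arrays. Member calls that leaving out these 5 arrays changes are given both ways. Shares of all genes or probe sets called are given for the fit of all 48 arrays only.

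**Figure D1:**
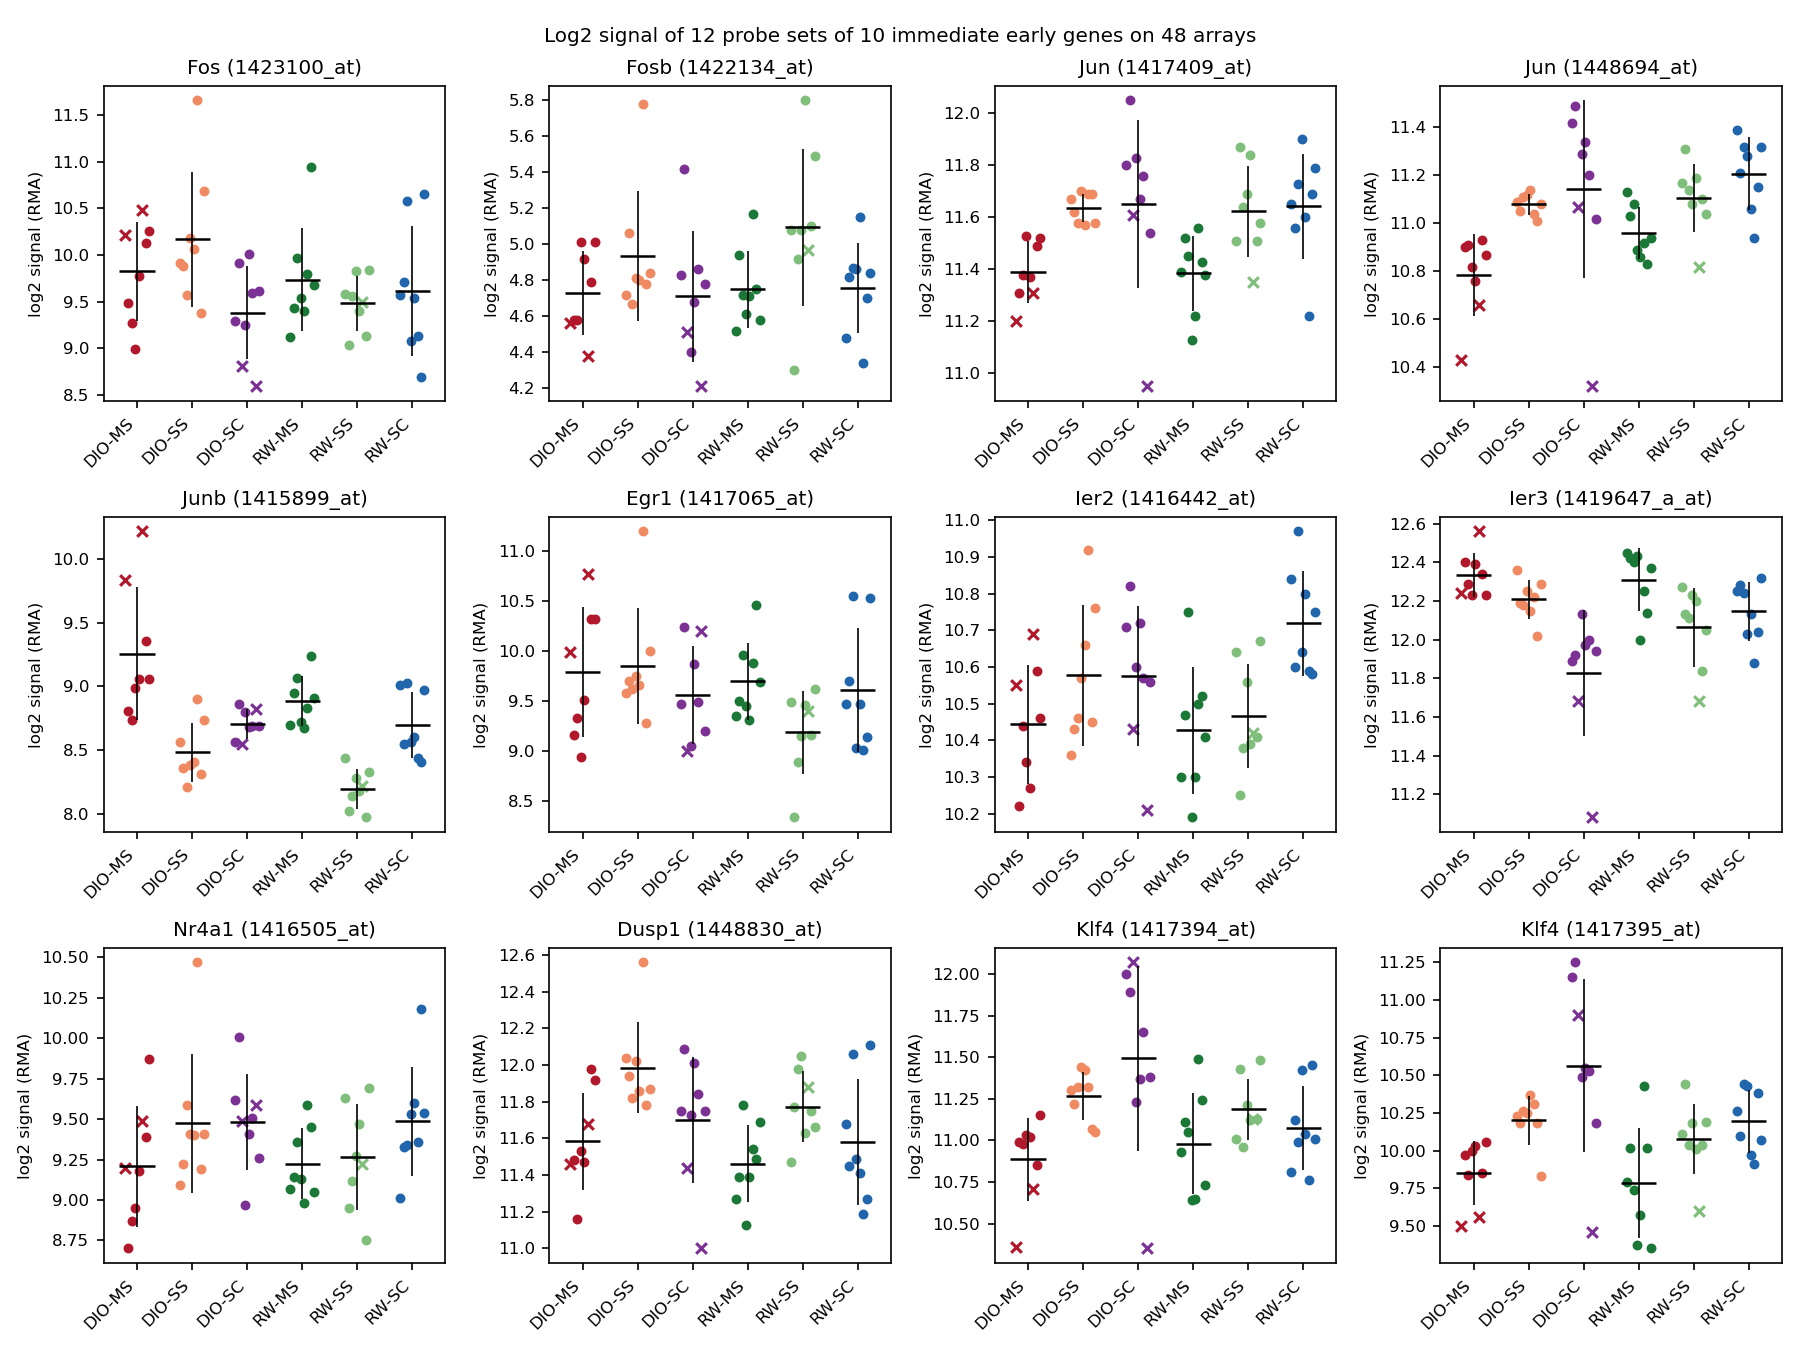
Log2 signal of each member probe set (12 panels, vertical axis) on each of 48 arrays in 6 groups of 8 (DIO-MS, DIO-SS, DIO-SC, RW-MS, RW-SS, RW-SC). Points are arrays, crosses the 5 arrays that stand apart, the black bar is the group mean and the line ± 1 SD; Junb is highest in DIO-MS and RW-MS and lowest in RW-SS, while Fos and Egr1 spread widely within every group.

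Differences were fitted with limma over all 48 arrays, with a mean for each group and p-values adjusted by the Benjamini-Hochberg method over 22626 probe sets. A probe set was called at an adjusted p below 0.05. Over 9 differences between 2 groups and 2 differences of responses, the members gave 14 calls. They belonged to Jun, Junb, Klf4, Ier2, Ier3 and Dusp1. Fos, Fosb, Egr1 and Nr4a1 were called in none.

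Junb was the AP-1 member with the widest differences between groups. Its log2 signal (lowest, median, highest) was 8.74, 9.06 and 10.22 in DIO-MS lungs, 8.21, 8.39 and 8.90 in DIO-SS lungs, and 8.55, 8.69 and 8.86 in DIO-SC lungs. In RW animals it was 8.67, 8.87 and 9.24 in RW-MS lungs, 7.97, 8.20 and 8.44 in RW-SS lungs, and 8.41, 8.58 and 9.03 in RW-SC lungs. In both diets the mainstream group had the highest median and the sidestream group the lowest, and all 8 RW-MS arrays lay above all 8 RW-SS arrays. The highest group mean, in DIO-MS, lay 1.06 above the lowest, in RW-SS.

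Junb rose 1.47-fold in DIO-MS over DIO-SC lungs (log2 difference 0.55, SE 0.14, adjusted p = 0.0025), with 6 of 8 DIO-MS arrays above the DIO-SC range. The 2 highest DIO-MS arrays were DIO-MS-6 at 10.22 and DIO-MS-1 at 9.84, those with the interferon scores above, and the other 6 lay between 8.74 and 9.36. The same 2 arrays had neutrophil scores of 1.03 and 0.89, against -0.44 to 0.67 on the 43 other arrays. Of 8 measured neutrophil markers 3 were higher and 0 lower in DIO-MS than in DIO-SC lungs, where 20.3% of all genes were called. Without the 5 arrays these counts were 2 and 0. In mainstream against sidestream lungs 2 were higher in each diet (13.3% of all probe sets called in DIO and 8.34% in RW animals). The part of these markers in the Junb differences was not tested. Without the 5 arrays that stand apart the difference was 0.29 (adjusted p = 0.091), which is no longer a call, and the adjusted p was 0.061 when only these 2 groups were fitted. In RW animals the mainstream difference from air was 0.19 and was not called.

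Between the 2 kinds of smoke, Junb was higher in mainstream lungs in both diets, and these calls stayed without the 5 arrays. The difference between DIO-MS and DIO-SS lungs was 0.78 (SE 0.14, 95% interval 0.50 to 1.05, adjusted p = 3.8e-05), a fold of 1.71, and 0.52 (adjusted p = 6.8e-04) without those arrays. The difference between RW-MS and RW-SS lungs was 0.69 (SE 0.14, 95% interval 0.41 to 0.96, adjusted p = 4.3e-04), a fold of 1.61, and was also 0.69 without them. Junb was lower in RW-SS than in RW-SC lungs, by a log2 difference of -0.50 (SE 0.14, adjusted p = 0.038), with 7 of 8 RW-SS arrays below the RW-SC range. That call held in 5 of 16 fits that left out 1 array of these groups, those without RW-SS-1, RW-SC-2, RW-SC-5, RW-SC-6 or RW-SC-7. In the others the adjusted p reached 0.10, and the difference lay between -0.54 and -0.45 in all 16. In DIO animals the sidestream difference from air was -0.22 and was not called.

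Jun, which encodes the main partner of FOS, was lower in mainstream lungs of DIO animals. Its signal on probe set 1448694_at was 10.43, 10.85 and 10.93 (lowest, median, highest) in DIO-MS lungs, 11.01, 11.08 and 11.14 in DIO-SS lungs, and 10.32, 11.24 and 11.49 in DIO-SC lungs. All 8 DIO-MS arrays lay below all 8 DIO-SS arrays, and the lowest DIO-SC array, at 10.32, was DIO-SC-7. The RW-MS arrays had 10.83, 10.93 and 11.13, the RW-SS arrays 10.82, 11.12 and 11.31, and the RW-SC arrays 10.94, 11.25 and 11.39, with overlap between these groups. Jun fell 1.28-fold in DIO-MS against DIO-SC lungs on this probe set (log2 difference -0.36, SE 0.09, adjusted p = 0.005) and 1.199-fold on probe set 1417409_at (-0.26, SE 0.09, adjusted p = 0.042). The second of these calls held in 6 of 16 fits that left out 1 array (-0.36 to -0.20), those without DIO-MS-4, DIO-MS-7, DIO-MS-8, DIO-SC-3, DIO-SC-7 or DIO-SC-8. Both held without the 5 arrays (-0.43 and -0.34) and neither when only these 2 groups were fitted (adjusted p = 0.12 and 0.20). DIO-MS lungs were also below DIO-SS lungs on 1448694_at (-0.29, SE 0.09, adjusted p = 0.03), a call that was lost on leaving out DIO-MS-1, DIO-MS-6 or DIO-SS-5 alone (up to adjusted p = 0.11). On 1417409_at the groups DIO-MS and DIO-SS did not overlap either, but the difference of -0.25 was not called (adjusted p = 0.07).

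In RW animals Jun differed by -0.26 on 1417409_at and -0.25 on 1448694_at between RW-MS and RW-SC lungs, and missed the threshold (adjusted p = 0.055 and 0.07). Both became calls without the 5 arrays, which belong to other groups, with unchanged differences (adjusted p = 0.0071 and 0.0012). Leaving out DIO-SC-7 alone also made both of them calls (adjusted p = 0.013 and 0.0092). Between RW-MS and RW-SS lungs Jun differed by -0.24 on 1417409_at and -0.15 on 1448694_at (adjusted p = 0.11 and 0.38), and by -0.28 and -0.19, both called, without the 5 arrays (adjusted p = 0.0074 and 0.026). In DIO-SS against DIO-SC lungs the difference on 1448694_at was -0.06 (adjusted p = 0.74). Once the 5 arrays were left out it was -0.21, a call (adjusted p = 0.025). On 1417409_at the means were 11.64 in DIO-SS and 11.65 in DIO-SC lungs, with no call with or without the 5 arrays.

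Fos was the most variable AP-1 member. Its signal (lowest, median, highest) was 8.99, 9.95 and 10.48 in DIO-MS lungs, 9.38, 9.98 and 11.66 in DIO-SS lungs, and 8.59, 9.44 and 10.01 in DIO-SC lungs. It was 9.12, 9.61 and 10.94 in RW-MS lungs, 9.03, 9.53 and 9.84 in RW-SS lungs, and 8.69, 9.56 and 10.65 in RW-SC lungs. All 6 groups overlapped, and the animals of a group differed by up to 2.28. The within-group SD of 0.57 was at percentile 98.0 of all probe sets. The widest difference, DIO-SS against DIO-SC lungs, was 0.78 (SE 0.27, 95% interval 0.24 to 1.33) and missed the threshold at adjusted p = 0.079. It was 0.56 (adjusted p = 0.24) without the 5 arrays. Fosb was dim, with signals of 4.21 to 5.80 over all arrays and a mean at percentile 14.6 of all probe sets, and its differences were not called.

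Among the zinc-finger factors, Klf4 had the calls. Its signal on probe set 1417394_at (lowest, median, highest) was 10.36, 10.98 and 11.15 in DIO-MS lungs, 11.05, 11.31 and 11.44 in DIO-SS lungs, and 10.35, 11.51 and 12.07 in DIO-SC lungs. In RW animals it was 10.64, 10.99 and 11.49 in RW-MS lungs, 10.96, 11.13 and 11.48 in RW-SS lungs, and 10.76, 11.02 and 11.45 in RW-SC lungs. DIO-SC lungs had the highest median and also held both the highest array, DIO-SC-3 at 12.07, and the lowest, DIO-SC-7 at 10.35. The other 6 DIO-SC arrays lay between 11.23 and 11.995.

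Klf4 fell 1.52-fold in DIO-MS against DIO-SC lungs on 1417394_at (log2 difference -0.61, SE 0.15, adjusted p = 0.0029) and 1.64-fold on 1417395_at (-0.71, SE 0.16, adjusted p = 7.6e-04). Both calls held in all 16 fits that left out 1 array and without the 5 arrays (-0.58 and -0.73), and with only these 2 groups fitted the call on 1417394_at was lost (adjusted p = 0.072). The same comparison in RW animals gave -0.41 on 1417395_at (adjusted p = 0.074), which became a call without the 5 arrays (adjusted p = 0.014). On 1417394_at the RW-MS mean lay only 0.10 below the RW-SC mean, not called with or without the 5 arrays. In air, DIO-SC lungs had more Klf4 than RW-SC lungs by 0.42 and 0.37 on the 2 probe sets, not called with all arrays (adjusted p = 0.088 and 0.16) and called without the 5 arrays (0.51 and 0.50, adjusted p = 0.005 and 0.015). In DIO-SS against DIO-SC lungs Klf4 differed by -0.36 on 1417395_at (adjusted p = 0.17), and by -0.49, a call, without the 5 arrays (adjusted p = 0.018). On 1417394_at the DIO-SS mean lay 0.23 below the DIO-SC mean, with no call with or without the 5 arrays. The response to mainstream smoke differed between the diets by -0.51 on 1417394_at (SE 0.21, adjusted p = 0.29), and by -0.67 (adjusted p = 0.041) without DIO-SC-7 alone. It was not called on this probe set without all 5 arrays, nor on 1417395_at in any of these fits.

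Markers of other cell types were read beside Klf4. Of 6 measured smooth muscle markers, 6 fell in DIO-MS against DIO-SC lungs, where 20.3% of all genes were called. In DIO-SC against RW-SC lungs 5 were higher (7.38% of all genes called). In RW-MS against RW-SC lungs 0 were called (14.5% of all genes). The smooth muscle score ranged from -1.19 to -0.03 in DIO-MS lungs, against 0.01 to 0.90 in DIO-SC lungs and -0.40 to 0.34 in RW-SC lungs. Of 7 measured endothelial markers, 1 fell in DIO-MS against DIO-SC lungs and 3 fell in RW-MS against RW-SC lungs (4 and 5 without the 5 arrays). DIO-SC-3, the array with the highest Klf4 signal, is also the one with the squamous epithelium score of 7.10, and it is among the 5 arrays without which the Klf4 calls in DIO-MS against DIO-SC held. The part of smooth muscle and endothelium in the Klf4 differences was not tested.

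Egr1, like Fos, varied widely between animals of a group. Its signal (lowest, median, highest) was 8.94, 9.75 and 10.77 in DIO-MS lungs, 9.28, 9.68 and 11.20 in DIO-SS lungs, and 8.997, 9.48 and 10.24 in DIO-SC lungs. It was 9.31, 9.59 and 10.46 in RW-MS lungs, 8.34, 9.28 and 9.62 in RW-SS lungs, and 9.01, 9.47 and 10.55 in RW-SC lungs. All groups overlapped, and the within-group SD of 0.53 was at percentile 97.7. The widest difference, DIO-SS against RW-SS lungs, was 0.66 (SE 0.26, 95% interval 0.14 to 1.18, adjusted p = 0.29). The group means of Nr4a1 lay between 9.21 ± 0.37 in DIO-MS lungs and 9.49 ± 0.34 in RW-SC lungs (SD, n = 8 each), and no difference was called.

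Ier3 was called in DIO animals in both smokes. It had 12.23, 12.32 and 12.56 (lowest, median, highest) in DIO-MS lungs, 12.02, 12.20 and 12.36 in DIO-SS lungs, and 11.08, 11.93 and 12.13 in DIO-SC lungs. In RW animals it had 12.003, 12.39 and 12.45 in RW-MS lungs, 11.68, 12.12 and 12.27 in RW-SS lungs, and 11.88, 12.19 and 12.32 in RW-SC lungs. All 8 DIO-MS arrays and 7 of 8 DIO-SS arrays lay above every DIO-SC array, whose lowest were DIO-SC-7 at 11.08 and DIO-SC-3 at 11.68.

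Ier3 rose 1.42-fold in DIO-MS over DIO-SC lungs (log2 difference 0.51, SE 0.09, 95% interval 0.32 to 0.70, adjusted p = 7e-05) and 1.303-fold in DIO-SS over DIO-SC lungs (0.38, SE 0.09, 95% interval 0.19 to 0.57, adjusted p = 0.01). Without the 5 arrays these were 0.34 (adjusted p = 8.8e-04) and 0.23 (adjusted p = 0.031), and with only DIO-SS and DIO-SC fitted the second call was lost (adjusted p = 0.088). Ier3 was lower in DIO-SC than in RW-SC lungs by -0.32 (SE 0.09, adjusted p = 0.031). That difference was -0.17 (adjusted p = 0.14) without the 5 arrays, and the call was also lost on leaving out DIO-SC-3, DIO-SC-7, RW-SC-1, RW-SC-2, RW-SC-3 or RW-SC-8 alone (differences from -0.36 to -0.21 over 16 such fits). In RW animals Ier3 was not called against air in either smoke, and its difference between RW-MS and RW-SS lungs was 0.24 (adjusted p = 0.10), or 0.19 (adjusted p = 0.047) without the 5 arrays. The difference between the diets in response was 0.35 for mainstream smoke (SE 0.13, adjusted p = 0.24) and 0.46 for sidestream smoke (SE 0.13, adjusted p = 0.11), so a difference between the diets was not shown.

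Ier2 fell 1.22-fold in RW-MS against RW-SC lungs (log2 difference -0.29, SE 0.08, 95% interval -0.46 to -0.12, adjusted p = 0.014). Its signal (lowest, median, highest) was 10.19, 10.44 and 10.75 in RW-MS lungs, 10.25, 10.42 and 10.67 in RW-SS lungs, and 10.58, 10.69 and 10.97 in RW-SC lungs. All but 1 of the RW-MS arrays lay below the RW-SC range. In RW-SS against RW-SC lungs the difference was -0.25 (adjusted p = 0.088). DIO animals had 10.22, 10.45 and 10.69 in DIO-MS lungs, 10.36, 10.52 and 10.92 in DIO-SS lungs, and 10.21, 10.58 and 10.82 in DIO-SC lungs. The DIO-MS difference from DIO-SC was -0.13 and not called, and -0.28 (adjusted p = 0.026) without the 5 arrays.

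Dusp1 had 11.16, 11.50 and 11.98 (lowest, median, highest) in DIO-MS lungs, 11.78, 11.90 and 12.56 in DIO-SS lungs, and 11.002, 11.75 and 12.09 in DIO-SC lungs. In RW animals it had 11.13, 11.44 and 11.78 in RW-MS lungs, 11.47, 11.76 and 12.05 in RW-SS lungs, and 11.19, 11.47 and 12.11 in RW-SC lungs. The sidestream group had the highest median in each diet. Dusp1 was 1.32-fold lower in DIO-MS than in DIO-SS lungs (log2 difference -0.40, SE 0.13, adjusted p = 0.036), with 6 of 8 DIO-MS arrays below the DIO-SS range. The call was lost without the 5 arrays (-0.40, adjusted p = 0.05) and on leaving out DIO-MS-1, DIO-MS-2, DIO-MS-3, DIO-MS-5, DIO-MS-6, DIO-SS-1, DIO-SS-4 or DIO-SS-6 alone (up to adjusted p = 0.11). In RW animals the same difference was -0.31 (adjusted p = 0.15).

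**Figure D2:**
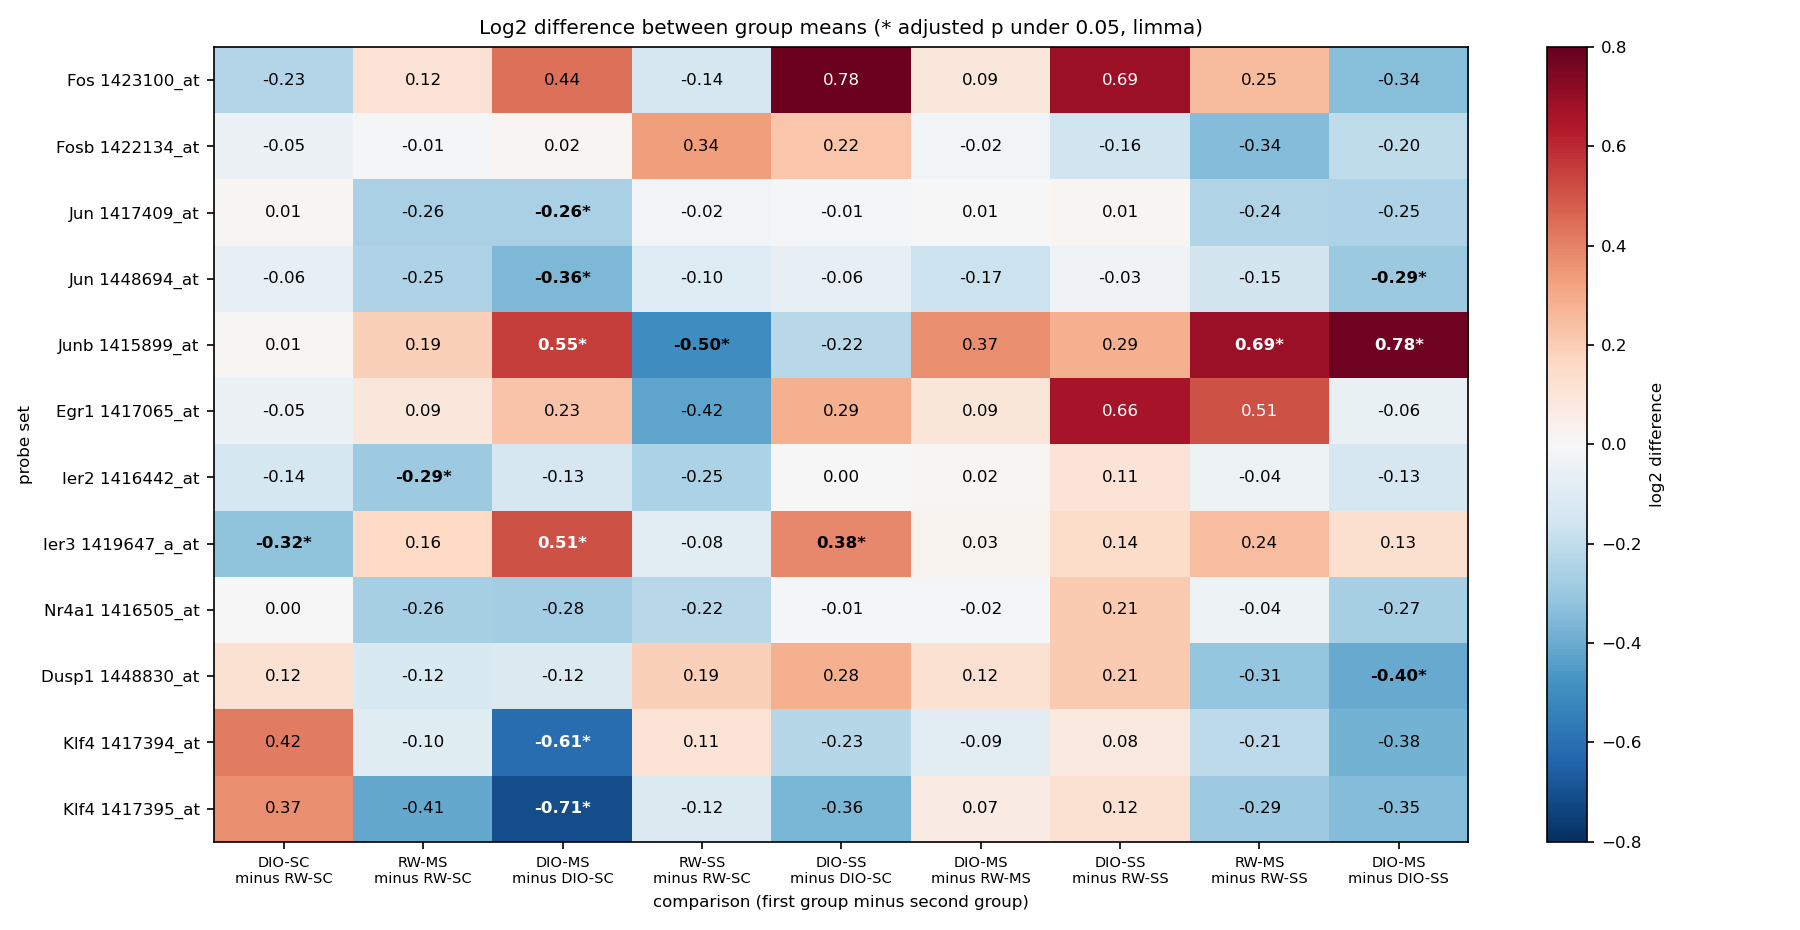
Heat map of the log2 difference (colour and printed value) of each member probe set (down) in 9 comparisons of 2 groups (across), with * for an adjusted p below 0.05. The comparison of DIO-MS with DIO-SC holds 6 of the 14 calls, with Junb and Ier3 higher and Jun and Klf4 lower.

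The members' counts of calls were set beside those of all probe sets. In DIO-MS against DIO-SC lungs 6 of 12 member probe sets, of 4 genes, were called, against 18.2% of all probe sets, and 2 were higher (9.91% of all) and 4 lower (8.24% of all). Their median difference was -0.12, against -0.02 over all probe sets. DIO-MS against DIO-SS lungs gave 3 of 12 (13.3% of all), with medians of -0.26 and -0.03 over members and all probe sets. In 5 comparisons 1 of 12 was called: RW-MS against RW-SC (14.2% of all), RW-MS against RW-SS (8.34%), DIO-SC against RW-SC (6.18%), DIO-SS against DIO-SC (5.29%) and RW-SS against RW-SC (2.3%).

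No member was called between the diets within a smoke group. With limma, 0 of 12 were called in DIO-MS against RW-MS lungs (1.07% of all probe sets were). At an unadjusted p below 0.05 there was 1 of 12, against 2822 of all 22626 probe sets. In DIO-SS against RW-SS lungs 0 of 12 were called (0.937% of all). Here 3 of 12, those of Fos, Junb and Egr1, had an unadjusted p below 0.05, against 2225 of all 22626. For a smoke response that differed by diet, 0 of 12 were called for mainstream (0.65% of all) and 0 for sidestream smoke (0.535%). At an unadjusted p below 0.05 there were 2 and 3 of 12, against 2872 and 2429 of all 22626. The sidestream responses of Fos differed by 0.92 between the diets (SE 0.39, 95% interval 0.14 to 1.70, adjusted p = 0.37). Comparisons that share DIO-SC or RW-SC arrays are not independent of each other.

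When the 6 groups were put in order of their means, neighbouring groups overlapped in range in all 5 of 5 pairs for every one of the 12 probe sets. Neighbours are the groups closest in mean, and the share of all probe sets with such overlap was not counted. Groups farther apart in the order could separate, as Junb did between RW-MS and RW-SS lungs. DIO-MS had the highest mean for Junb and Ier3 and the lowest for Klf4 (1417394_at), Jun (1448694_at) and Nr4a1. RW-MS had the lowest mean for Ier2, Dusp1, Jun (1417409_at) and Klf4 (1417395_at). DIO-SS had the highest for Fos, Egr1 and Dusp1.

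**Figure D3:**
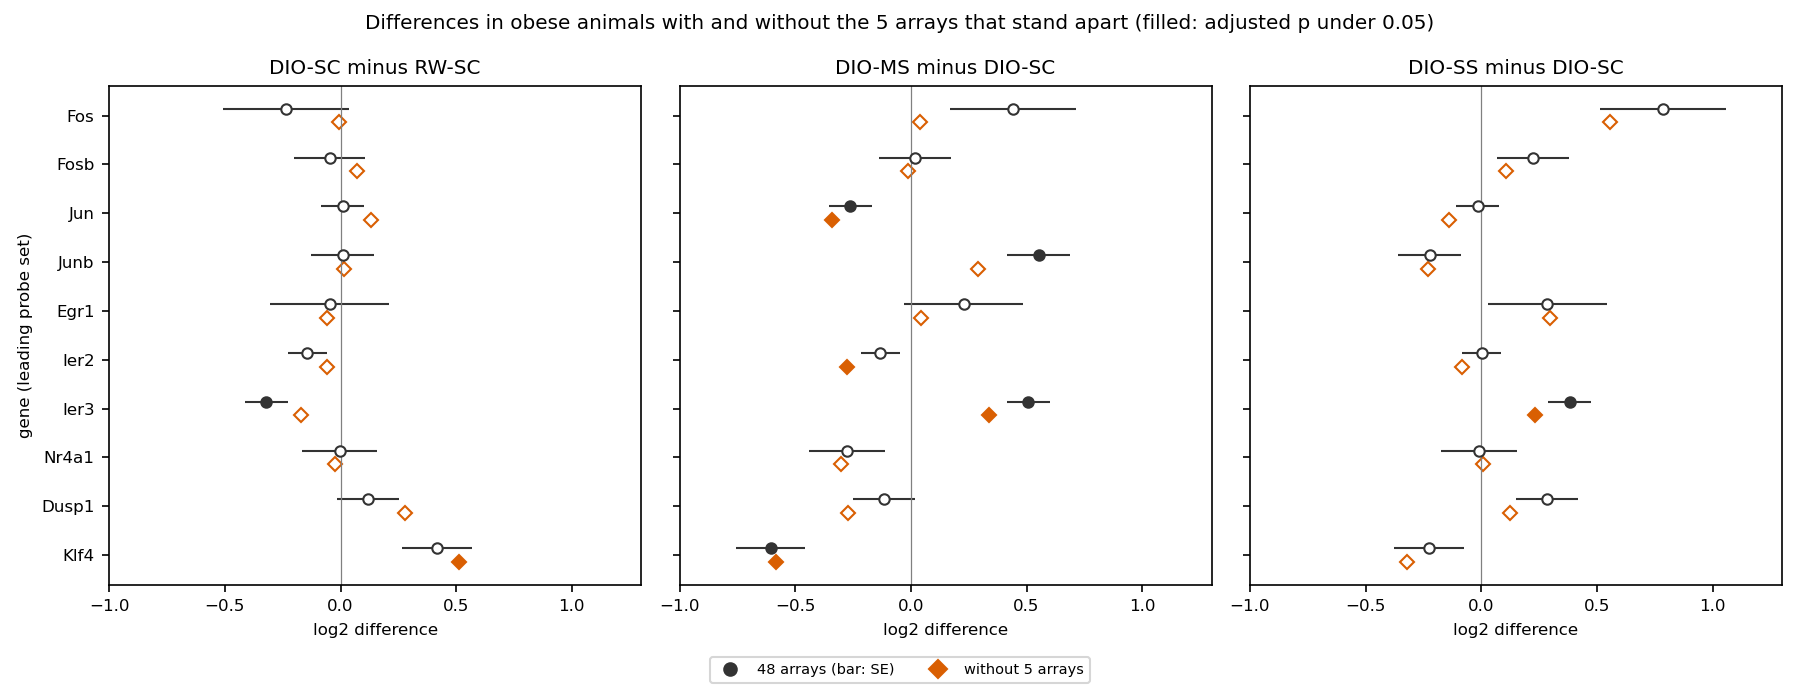
Log2 difference of the leading probe set of each member gene (the probe set with the highest mean) in 3 comparisons of DIO animals, from all 48 arrays (circles, with SE) and without the 5 arrays that stand apart (diamonds). Filled symbols have an adjusted p below 0.05. The Junb difference between DIO-MS and DIO-SC is 0.55 with all arrays and 0.29 without the 5, while the Klf4 differences of -0.61 and -0.58 are close.

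The members were also followed from animal to animal inside the groups. For this, each array's deviation from its group mean was taken for the leading probe set of each gene, and Pearson's r and Spearman's rho were computed over the 48 arrays for all 45 pairs. P-values came from 100000 permutations of the arrays within groups, two-sided, with a smallest possible p of 1e-05, and were adjusted over the 45 pairs. By r, 29 pairs were called, 28 of them positive, and by rho 25. Pairs of genes outside the list were not counted, so whether these counts are particular to the members was not tested. Without the 5 arrays 22 pairs were called, of which 20 were called with all arrays too, and the median r was 0.34, against 0.40 with all 48.

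Fos and Egr1 were the pair with the highest correlation, with r = 0.81 and rho = 0.78 (both permutation p = 1e-05, adjusted p = 6.4e-05). It was 0.76 without the 2 arrays farthest out in Fos and 0.90 without the 5 arrays, and positive in all 6 groups (0.20 to 0.97). Fos followed Ier2 with r = 0.73 and rho = 0.75, and Dusp1 with r = 0.73 and rho = 0.68 (all with permutation p = 1e-05, adjusted p = 6.4e-05). Without the 2 arrays farthest out in Fos these stood at 0.72 and 0.73. Junb followed Egr1 with r = 0.72 and rho = 0.72 and Fos with r = 0.69 and rho = 0.74 (permutation p = 1e-05, adjusted p = 6.4e-05 for each). They were 0.73 and 0.65 without the 2 farthest arrays.

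Jun had low correlations with Fos and Junb. Its r with Fos was 0.22 (rho 0.12, permutation p = 0.13 and 0.42, adjusted p = 0.18 and 0.53) and that with Junb was -0.0028 (rho 0.0954, permutation p = 0.98 and 0.52). Without the 5 arrays these r were 0.14 and 0.29, neither called (permutation test, adjusted p = 0.47 and 0.12). With Fosb, the remaining AP-1 gene, the r of Jun was 0.44 (rho 0.41, permutation p = 0.0051 and 0.0077, adjusted p = 0.012 and 0.017). It was 0.62 without the 2 arrays farthest out in Fosb. Without the 5 arrays it was 0.32 and no longer a call (permutation test, adjusted p = 0.073). Jun followed Klf4, with r = 0.69 and rho = 0.52 (permutation p = 5e-05 and 6.8e-04, adjusted p = 2.5e-04 and 0.0031), and r = 0.51 without DIO-SC-7 and RW-SC-6, the 2 arrays farthest out in Jun. The r of 0.58 between Jun and Ier3 (permutation p = 0.0037, adjusted p = 0.01) rested on those 2 arrays, since r was 0.27 without them and rho was 0.26 (adjusted p = 0.15). The 1 negative call, Junb with Klf4 at r = -0.27 (rho -0.26, permutation p = 0.03 and 0.074, adjusted p = 0.048 and 0.11), was -0.07 without the 5 arrays. The 2 probe sets of Jun had r = 0.82 with each other and those of Klf4 0.86.

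**Figure D4:**
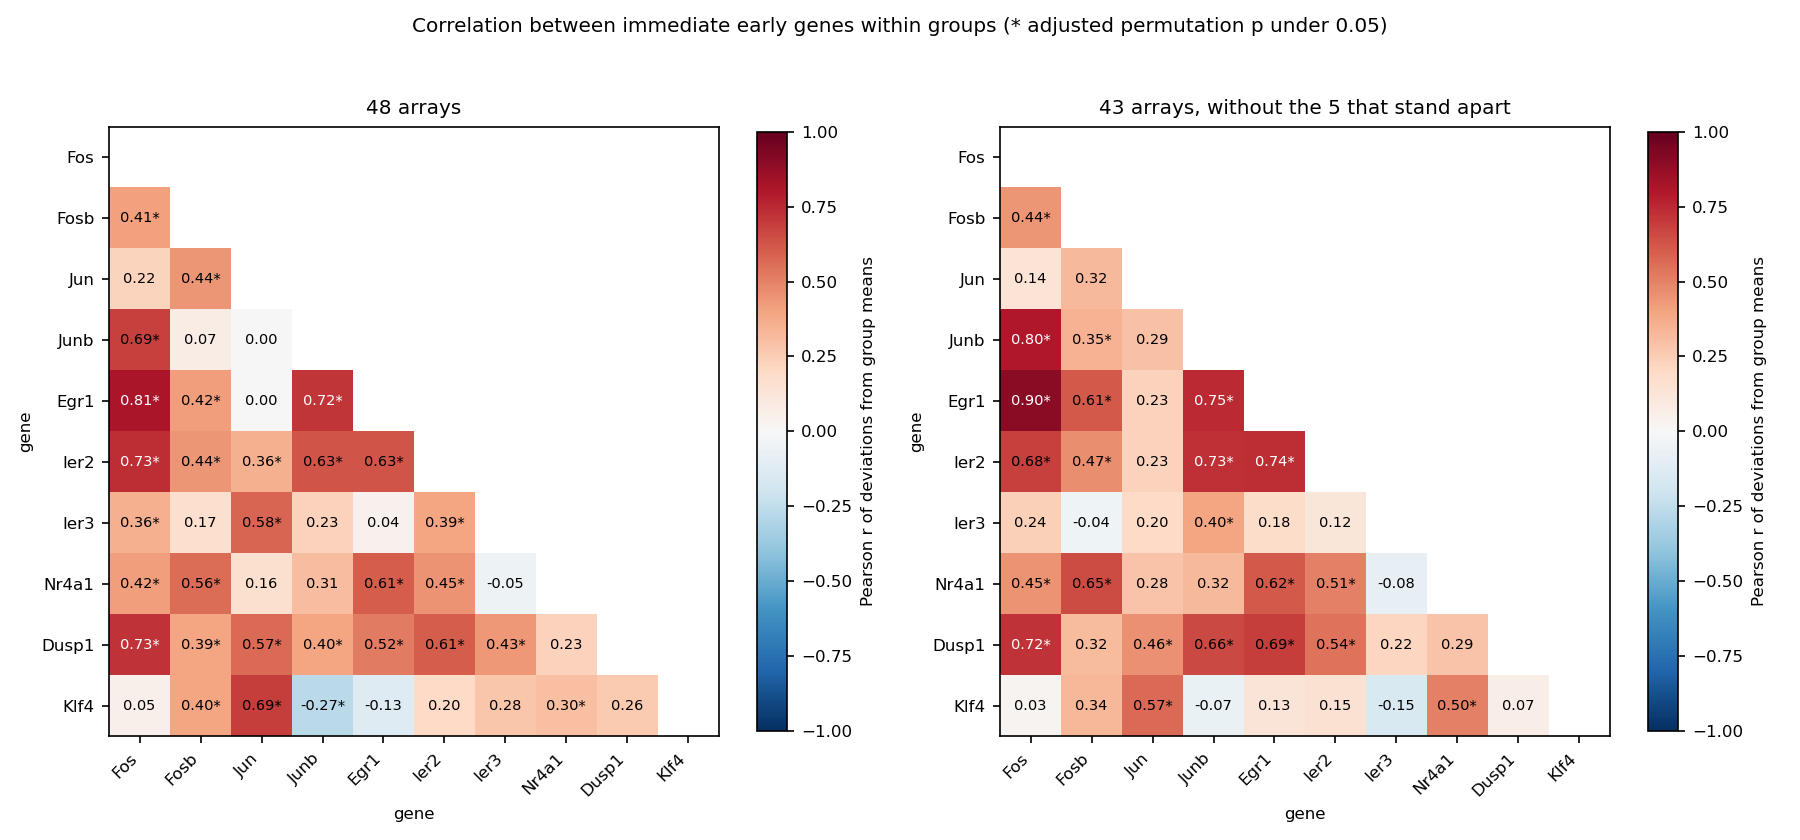
Pearson's r between deviations from the group mean for each pair of member genes, over 48 arrays and over the 43 arrays left without those that stand apart. The darkest pair is Fos with Egr1 at 0.81 and 0.90. Over 48 arrays Jun with Klf4 (0.69) is as dark as Fos with Junb (0.69), and Jun with Junb is near 0. Over the 43 arrays Jun with Junb is 0.29.

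**Figure D5:**
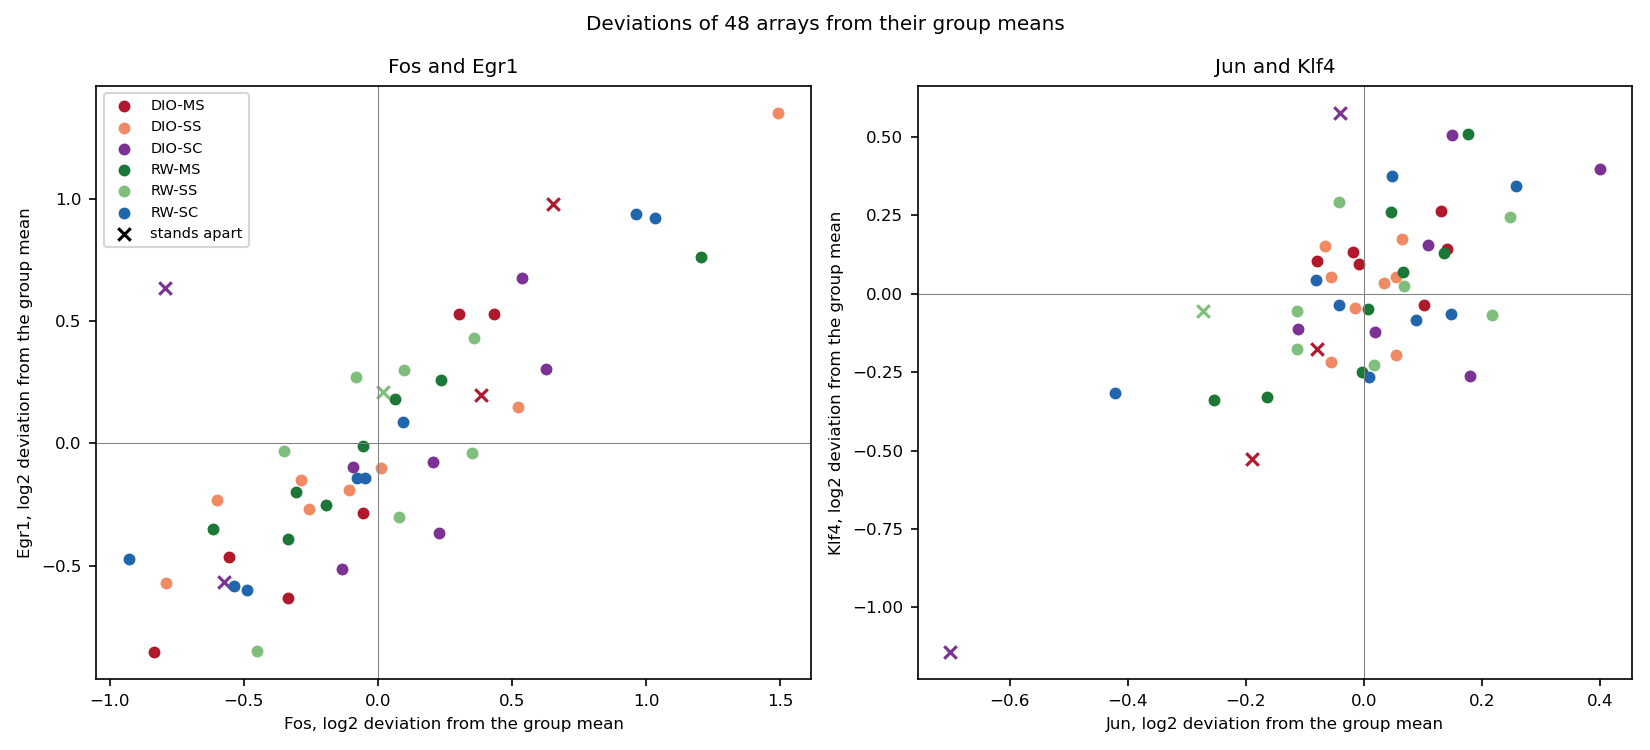
Deviation from the group mean (log2) of Fos against Egr1 and of Jun against Klf4, 1 point per array and 1 colour per group. Fos and Egr1 lie mostly along 1 line (r = 0.81). DIO-SC-7 falls off it, with Fos below and Egr1 above the group mean. The Jun and Klf4 relation (r = 0.69) leans on DIO-SC-7 at the low end.

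Animals differed in the level of several members at once. With each gene's deviations divided by their SD, the mean over the 10 genes was highest on DIO-SS-6 (1.80) and DIO-SC-2 (1.41) and lowest on DIO-SC-7 (-1.82). On DIO-SS-6 the signal was 11.66 for Fos, 11.20 for Egr1, 10.47 for Nr4a1 and 12.56 for Dusp1, each the highest of the 48 arrays.

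Outside the list, Ccn1, a matricellular growth signal that is itself an early response gene, had the deviations most like those of the members as a whole, with r = 0.81 to their mean over the 48 arrays and 0.74 without the 5. It was also first among the genes outside the list for Fos (r = 0.73) and Ier2 (r = 0.71), with and without the 5 arrays. Zfp36, which encodes a protein that speeds decay of AU-rich messenger RNAs, was first for Junb (r = 0.79) and Egr2 for Egr1 (r = 0.63), and without the 5 arrays Ccn1 came first for both (0.70 and 0.78). For Dusp1, Snai1 was first with all arrays (r = 0.64) and Zfp36 without the 5 (0.81), and for Klf4 Mob4 (0.73) and then Klf6 (0.68). Ksr1 stayed first for Fosb (0.52 and 0.61). Spon1 for Jun (0.81) and Tmem176b for Ier3 (0.79) dropped to ranks 34 and 124 without the 5 arrays. These likenesses share arrays, labelling and normalization, and are descriptions.

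Other early response genes were read from lists of 18 measured transcription factors and 29 measured effectors, each by its leading probe set. In DIO-MS against DIO-SC lungs 4 of the 18 factors rose and 4 fell, against 20.3% of all genes called, and 1 rose and 4 fell without the 5 arrays. In RW-MS against RW-SC lungs 4 rose and 1 fell (14.5% of all genes called), and 6 rose and 2 fell without the 5 arrays. In DIO-SS against DIO-SC lungs 0 rose and 4 fell (6.13% of all genes called), and 0 and 5 without the 5 arrays. In RW-SS against RW-SC lungs 1 rose and 1 fell (2.2%), with and without the 5 arrays. Egr2, a close relative of Egr1, rose by 0.70 in DIO-MS over DIO-SC lungs (0.45, adjusted p = 0.029, without the 5 arrays) and by 0.57 in RW-MS over RW-SC lungs (adjusted p = 0.011). Nfil3 rose by 0.92 in RW-SS, by 0.67 in RW-MS and by 0.44 in DIO-SC over RW-SC lungs. Atf3, a stress-induced repressor, rose by 0.69 in DIO-MS over DIO-SC lungs and differed by 0.04 without the 5 arrays. Per1, a clock gene with cyclic AMP-responsive transcription, fell by 0.79 in DIO-MS against DIO-SC, by 1.02 in DIO-SS against DIO-SC and by 0.75 in RW-MS against RW-SC lungs. Bhlhe40, another clock-linked repressor, was higher by 0.93 in DIO-MS than in DIO-SS and by 0.97 in RW-MS than in RW-SS lungs. Against air it fell by 0.61 in DIO-SS and by 0.54 in RW-SS lungs, and it rose by 0.43 in RW-MS lungs and by 0.32 in DIO-MS lungs (0.16, adjusted p = 0.32, without the 5 arrays).

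Nr4a2, the nearest relative of Nr4a1, rose by 0.57 in DIO-SC over RW-SC lungs and fell by 0.41 in DIO-MS and by 0.43 in DIO-SS against DIO-SC lungs. Its mainstream response differed between the diets by -0.48 (adjusted p = 0.038), and that of Nr4a1 by -0.01 (not called). In DIO-SC against RW-SC lungs 2 of the 18 factors rose and 0 fell (7.38% of all genes called), and 3 and 0 without the 5 arrays.

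Among the effectors, most calls after mainstream smoke were upward. In DIO-MS against DIO-SC lungs 11 of 29 rose and 0 fell (9 and 3 without the 5 arrays), against 20.3% of all genes called. In RW-MS against RW-SC lungs 11 rose and 2 fell with and without the 5 arrays, against 14.5% of all genes. Cxcl1, a neutrophil attractant, had a mean signal of 9.87 in DIO-MS and 5.31 in DIO-SC lungs (difference 4.56), and 9.05 in RW-MS and 5.36 in RW-SC lungs (3.69). Ccl2, a monocyte attractant, rose by 3.10 and 2.40 in these 2 comparisons, Il6 by 2.16 (1.08 without the 5 arrays) and 1.35, and Nfkbiz, a co-regulator of NF-kB, by 1.85 and 1.49. Ptgs2, the inducible cyclooxygenase, rose by 1.54 in DIO-MS and by 0.88 in DIO-SS over DIO-SC lungs. Sidestream smoke gave 4 effectors higher and 1 lower in DIO-SS against DIO-SC lungs (6.13% of all genes called), and 3 higher and 3 lower without the 5 arrays. It gave 2 higher and 1 lower in RW-SS against RW-SC lungs (2.2%), and 3 and 1 without the 5 arrays. Of 16 measured upstream kinases and factors, 0 were called in DIO-MS against DIO-SC (1 lower without the 5 arrays) and 1 in RW-MS against RW-SC lungs, the kinase gene Rps6ka3 at 0.26.

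Heat shock genes answer protein stress through a factor of their own. All 11 measured ones rose in DIO-SC over RW-SC lungs (median 0.63), where 7.38% of all genes were called. Hspa1b rose by 3.01 and Hspa1a by 2.29, and both encode inducible Hsp70. In DIO-SS against DIO-SC lungs all 11 fell (6.13% of all genes called). In DIO-MS against DIO-SC lungs 8 of 11 fell (20.3% of all genes called), and 10 without the 5 arrays. The heat shock score ranged from 0.56 to 0.97 in DIO-SC lungs, against -0.43 to -0.21 in RW-SC lungs. The 2 air groups did not overlap in it, and its part in the differences of the members that use DIO-SC was not tested.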

How the data were processed

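Total lung RNA was labelled with biotin from an oligo-dT primer and hybridised to 1 array per animal, per the labels' protocols. The authors deposited log2 values, made with RMA per the submitters' processing notes. RMA subtracts background, quantile normalizes arrays and summarizes probes. The RMA version is not given in the sources used here, nor is it known from them whether the 48 arrays were normalized as 1 set. Quantile normalization can hide shifts common to most genes. In RW-MS and in RW-SS, the source labels of animals 7 and 8 carry the numbers 5 and 6 again, and all were taken as separate animals. The number of arrays, 8 a group, limits the precision.

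The 64 hybridization controls were left out of 22690 probe sets. Of these 22690, 20393 had 1 gene symbol, 691 several and 1606 no entry. Groups came from sample titles. In R 4.3.3, limma 3.58.1 (lmFit, eBayes) fitted a mean per group to the remaining 22626 probe sets, with 11 contrasts, two-sided. The members and all gene and marker lists were chosen with earlier results of these data known. The rule for names was every member probe set in all contrasts, at most 5 called genes per direction of each other list and contrast, and the 3 most correlated genes of each member (5 for the mean). Of these, the text gives a selection. Gene lists were counted over the leading probe sets of 12393 genes. Lists held the early response factors, effectors, upstream kinases, heat shock genes and markers of lung, neutrophils, alveolar macrophages, skeletal, cardiac and smooth muscle, adipocytes, thymocytes, squamous epithelium, endothelium and interferon response. Correlations and promoter motifs were computed in Python 3.11.15 with numpy 2.4.6, pandas 2.3.3 and scipy 1.17.1, with the R package data.table (version 1.17.8) and matplotlib 3.10.9 for tables and plots. The fits were tested on simulated data. Alternatives were centring each array on its median, 1 probe set per gene, leaving out probe sets with a mean log2 signal below 6, trend and robust eBayes, a replicate block, leaving out the 5 arrays that stand apart, fitting only the groups compared, and leaving out each array in turn. Counts of other lists without the 5 arrays were added after seeing the data. They stand without the share of all genes called in that fit.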

Additional observations from a re-analysis of the deposited data

Results flagged for a closer look

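Dixon's test looked for a single animal far from the other 7 of its group in 72 combinations of probe set and group, and marked 9. Chance marks about 1 in 20 such groups. DIO-SS-6 was marked as the highest of its group for 4 genes, with signals of 5.78 for Fosb, 11.20 for Egr1, 10.47 for Nr4a1 and 12.56 for Dusp1. DIO-SC-7 was marked as the lowest of its group for both probe sets of Jun, at 10.95 on 1417409_at and 10.32 on 1448694_at, and for Ier3 at 11.08. DIO-SC-7 is the array with the thymocyte score of 5.12 and the adipocyte score of 4.08, and its part in these values was not tested. RW-MS-7 was marked as the highest of its group for Fos at 10.94, and DIO-SS-8 as the lowest for Klf4 on 1417395_at at 9.83.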

How the results depend on the processing

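Of the 14 member calls, 14 held after centring each array, 14 after leaving out dim probe sets (which removes Fosb), 14 with trend and robust eBayes, and 11 of 11 with 1 probe set per gene. Without the 5 arrays that stand apart 11 held, 3 were lost and 11 were gained, and with only the groups compared 8 held, 6 were lost and 7 were gained. No difference that was called in any of these fits changed sign. Without the 5 arrays the count of member probe sets called was 2 in DIO-SC against RW-SC, 4 in RW-MS against RW-SC, 3 in DIO-SS against DIO-SC and 4 in RW-MS against RW-SS. With only the groups compared, which leaves fewer arrays to estimate the spread, it was 0, 4, 0 and 2 in these comparisons, 2 in DIO-MS against DIO-SC and 6 in DIO-MS against DIO-SS. Leaving out dim probe sets gave 2 in RW-MS against RW-SC. These counts, and those below, stand without the share of all probe sets called in the same fit. They were not read as a trait of the members.

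Leaving out 1 array of the compared groups at a time gave counts of 0 to 2 in DIO-SC against RW-SC, 1 to 3 in RW-MS against RW-SC, 5 to 6 in DIO-MS against DIO-SC, 0 to 1 in RW-SS against RW-SC and 1 to 2 in DIO-SS against DIO-SC. It gave 1 to 2 in RW-MS against RW-SS, 1 to 3 in DIO-MS against DIO-SS, 0 to 1 for the mainstream and 0 to 0 for the sidestream difference between diets, and 0 to 0 in DIO-MS against RW-MS and in DIO-SS against RW-SS. Among these, the arrays whose loss moved a count by over 1.5 times are DIO-SC-3 and DIO-SC-7, RW-SC-1, RW-SC-2, RW-SC-3 and RW-SC-8 (Ier3 in air, where DIO-SC-7 gave 2 and the others 0), RW-SC-6, RW-MS-2 and RW-MS-6 (RW-MS against RW-SC, 3, 2 and 3), RW-SS-2 (RW-MS against RW-SS, 2), RW-SC-1, RW-SC-3, RW-SC-4, RW-SC-8 and RW-SS-2 to RW-SS-8 (RW-SS against RW-SC, 0 each), and DIO-MS-1 and DIO-MS-6 (DIO-MS against DIO-SS, 1 each). DIO-SC-7 also gave 2 in DIO-SS against DIO-SC, and 1 for the mainstream difference between diets, that of Klf4. Among arrays outside the compared groups, leaving out DIO-SC-7 gave 4 in RW-MS against RW-SC, 3 in RW-MS against RW-SS and 5 in DIO-MS against DIO-SS, and leaving out DIO-SC-2 gave 2 in RW-MS against RW-SC, with no call lost.

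Replicate numbers did not pair the arrays, since deviations of same-numbered arrays correlated between -0.32 and 0.49 and at most 2 of 8 correlated best with their own number. With the number as a replicate block, 13 of the 14 calls held, and Jun on 1417409_at in DIO-MS against DIO-SC was lost (-0.26, adjusted p = 0.05), which left 5 calls there. With the mean of a gene's probe sets, 26 of 45 correlations were called. Fos and Egr1, with the widest spread within groups, are the members for which 8 arrays a group limit the size of a difference that can be called, and Fosb lies near the dim end of the scale.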
